A study of Mus musculus with 18 samples.

Results

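The muscarinic acetylcholine receptors Chrm1, Chrm2, Chrm3, Chrm4 and Chrm5 were taken by gene name, mapped to Ensembl identifiers, and followed through every library, so that 5 of the 38561 genes counted are described here. The 18 RNAseq libraries came from adult C57 Bl6J mice, 3 of them Pcm1-/- (KO in the plots) and 3 WT littermates, each of which gave 1 library of frontal cortex, 1 of striatum and 1 of hippocampus. The Pcm1-/- mice carry a gene-trap insertion from embryonic stem cells in every tissue, and the labels name no other allele or agent. The line was backcrossed to C57 Bl6J for at least 3 generations, so alleles of the stem cell strain may remain near Pcm1 or elsewhere. Where such alleles differ between the groups, their effect cannot be told apart from that of the insertion. The regions were dissected from the same animals, so libraries of different regions are not independent of each other. All 5 genes had at least 10 counts in at least 1 library and entered every test, Chrm5 through striatum and hippocampus alone.

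Muscarinic receptors are G protein coupled receptors for acetylcholine. M1, M3 and M5, the products of Chrm1, Chrm3 and Chrm5, couple mainly to Gq, which activates phospholipase C and closes the M current potassium channels. M2 and M4, from Chrm2 and Chrm4, couple to Gi and Go, which inhibit adenylyl cyclase and open inwardly rectifying potassium channels. M1 is the main muscarinic receptor of forebrain projection neurons, M4 is abundant in striatal projection neurons, M2 is known as an autoreceptor of cholinergic terminals, and M5 is best known in midbrain dopamine neurons.

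The libraries held 24950537 to 33405081 counts on genes. Pcm1, the targeted gene, was at 120 to 172 CPM (counts scaled to the same library size with TMM factors) in WT libraries and 11.8 to 17.6 CPM in Pcm1-/- libraries, so every library matched its label. Markers of striatal projection neurons (9 genes) summed to 9354 CPM or more in each striatal library and to 349 CPM or less in each other library, and excitatory cortical markers (7 genes) summed to 1803 CPM or more outside striatum and 123 CPM or less within it. The 10 hippocampal field markers summed to 1415 to 1759 CPM in hippocampus and 523 to 963 CPM elsewhere, although Dkk3 was not highest in hippocampus, nor was Wfs1. WT striatum replicate 3 stood apart with 6197 CPM of choroid plexus markers (7 genes), against 31.3 to 174 CPM in the other striatal libraries, and with 322 CPM of thalamic markers (8 genes), against 150 to 170 CPM. Hemoglobin and Alas2 transcripts (5 blood genes) were lower in Pcm1-/- libraries, with 5 of 5 genes at an unadjusted p under 0.05 in each region (15.3%, 13.5% and 9.89% of all genes in frontal cortex, striatum and hippocampus), 0 of 5 called within a region, median log2 fold changes of -1.22, -1.02 and -1.54 in the same order, and 5 of 5 called lower over the regions together. Without WT striatum replicate 3 the striatal blood markers were lower by sign for 5 of 5 genes, 0 of them at an unadjusted p under 0.05, with a median of -0.60.

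Chrm1 (ENSMUSG00000032773) lies on chromosome 19 at 8663789 to 8683587 of GRCm38 on the plus strand, and its annotated exons span 6487 bases. Chrm2 (ENSMUSG00000045613) lies on chromosome 6 at 36388084 to 36528414, plus strand, with 6053 exonic bases. Chrm3 (ENSMUSG00000046159) covers chromosome 13 from 9875486 to 10360847 on the minus strand, with 6253 exonic bases. The Chrm4 (ENSMUSG00000040495, chromosome 2, 91927249 to 91928688, plus strand) and Chrm5 (ENSMUSG00000074939, chromosome 2, 112479171 to 112480769, minus strand) models in GENCODE each consist of 1 coding exon, of 1440 and 1599 bases, with no UTR. Antisense transcripts overlap exons of Chrm1 (Gm22820, 329 bases) and Chrm2 (9330158H04Rik, 142 bases), and since the sources used here do not state whether counting used strand, reads there cannot be assigned with certainty.

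RefSeq promoter windows (GRCm38.p6, 300 bases around the start) were at hand for 4 of the 5 genes. Those of Chrm3 and Chrm4 are shown because each Pcm1-/- library exceeded each WT library for these genes in every region, and that of Chrm2 because this held in frontal cortex only. Capitals mark GC boxes (GGGCGG, either strand) and CCAAT boxes (CCAAT, either strand), and in Chrm4 a pair of GC boxes overlap.
Chrm4, chr2:91921939-91922238, plus strand: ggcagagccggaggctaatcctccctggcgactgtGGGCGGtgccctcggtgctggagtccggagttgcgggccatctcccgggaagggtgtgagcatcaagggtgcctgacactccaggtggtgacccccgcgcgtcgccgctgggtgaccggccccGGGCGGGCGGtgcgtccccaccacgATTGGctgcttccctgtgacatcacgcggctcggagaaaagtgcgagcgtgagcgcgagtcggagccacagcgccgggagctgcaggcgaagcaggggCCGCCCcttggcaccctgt
Chrm3, chr13:10360754-10361053, minus strand: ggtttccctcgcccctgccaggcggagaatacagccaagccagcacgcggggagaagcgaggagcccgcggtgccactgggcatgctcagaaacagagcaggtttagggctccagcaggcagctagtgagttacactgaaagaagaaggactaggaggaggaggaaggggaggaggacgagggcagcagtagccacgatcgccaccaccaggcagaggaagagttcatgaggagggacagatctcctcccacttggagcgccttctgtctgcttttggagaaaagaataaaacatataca
Chrm2, chr6:36387834-36388133, plus strand: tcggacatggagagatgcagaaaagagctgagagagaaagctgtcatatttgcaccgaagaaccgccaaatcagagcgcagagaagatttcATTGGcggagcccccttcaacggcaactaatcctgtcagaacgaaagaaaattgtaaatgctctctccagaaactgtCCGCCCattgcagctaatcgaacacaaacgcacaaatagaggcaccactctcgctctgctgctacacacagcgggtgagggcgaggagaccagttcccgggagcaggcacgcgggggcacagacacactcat
The Chrm4 window held 4 GC boxes and 1 CCAAT box, that of Chrm2 held 1 of each, and those of Chrm3 and Chrm5 held neither. Of 32851 promoters of this length, 35.7% held a GC box and 37.4% a CCAAT box. The GC content was 70.7% for Chrm4, 57.3% for Chrm3, 52.7% for Chrm2 and 39% for Chrm5, against a median of 52.7% over all promoters. The RefSeq window of Chrm4 ends 5011 bases upstream of the GENCODE model. Whether reads from an upstream exon entered its counts is not known, since the gene models used for counting were not at hand.

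Per length of exon, Chrm1 and Chrm4 made up most of the muscarinic transcripts in every region. The values here are RPKM, that is CPM divided by exonic kilobases, the only scale on which genes are compared. In WT frontal cortex Chrm1 was at 40.8 ± 2.44 RPKM (SD, n = 3) and Chrm4 at 35.4 ± 3.47 RPKM, followed by Chrm3 at 7.27 ± 0.855, Chrm2 at 3.84 ± 0.583 and Chrm5 at 0.0839 ± 0.048 RPKM. Chrm1 and Chrm4 were not separated there, since the lowest Chrm1 library (38.4 RPKM) was below the highest Chrm4 library (39.4 RPKM). In WT striatum the order was Chrm4 (84.8 ± 13.6 RPKM), Chrm1 (28.3 ± 3.73), Chrm2 (3.68 ± 0.683), Chrm3 (1.18 ± 0.118) and Chrm5 (0.434 ± 0.00499), and no neighbours overlapped. WT hippocampus ran from Chrm1 (42 ± 3.73 RPKM) through Chrm4 (10.8 ± 2.49), Chrm3 (6.09 ± 0.509) and Chrm2 (3.44 ± 0.599) to Chrm5 (1.13 ± 0.546), again without overlap of neighbours. Chrm4 and Chrm5 are scaled by coding length alone and the other genes by coding and untranslated exons. The place of these genes in the order thus depends on the gene models. If counting used longer models of Chrm4 or Chrm5, their RPKM and shares are too high. Scaled by the longest transcript of each gene the order in WT libraries was the same, but in WT hippocampus Chrm3 (7.94 to 9.31 RPKM) and Chrm4 (8.53 to 13.5 RPKM) overlapped, and in WT frontal cortex Chrm1 and Chrm4 no longer did.

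**Figure D1:**
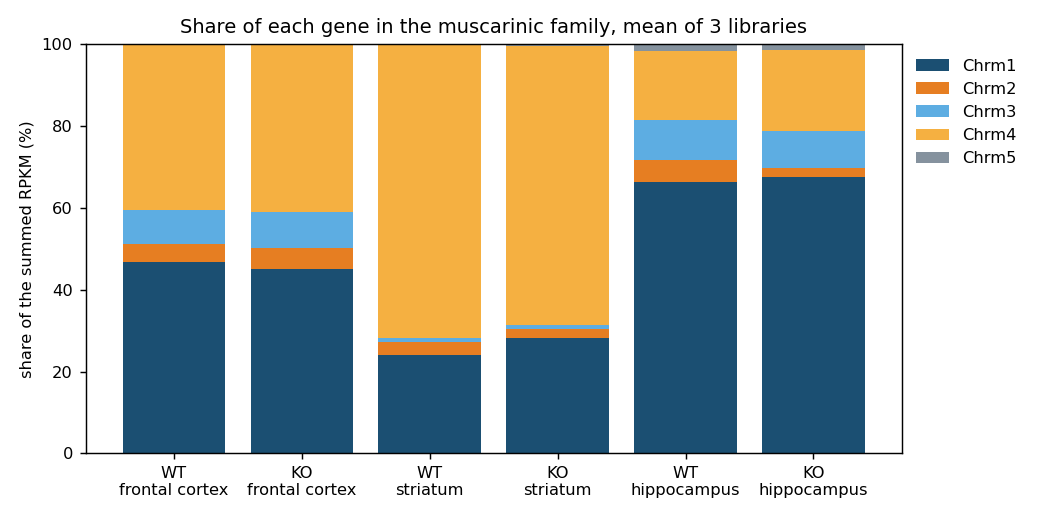
Share of each gene in the summed RPKM of the 5 muscarinic receptor genes (y axis, percent), as the mean of 3 libraries for each genotype and region (x axis). Chrm4 holds 71.5% of the sum in WT and 68.3% in Pcm1-/- striatum, and Chrm1 holds 66.3% in WT and 67.4% in Pcm1-/- hippocampus.

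The balance between Gq and Gi/Go coupled receptors differed by region far more than by genotype. The Gq coupled genes (Chrm1, Chrm3, Chrm5) held 54.4% to 55.8% of the summed RPKM in WT frontal cortex and 53.8% to 54.1% in Pcm1-/- frontal cortex. In hippocampus the share was 76.4% to 80% in WT and 76.2% to 78.9% in Pcm1-/-. In striatum it was 24.5% to 26.7% in WT and 27.9% to 30.7% in Pcm1-/-, and the genotypes did not overlap in frontal cortex (lower in Pcm1-/-) or striatum (higher in Pcm1-/-). The summed RPKM of the family was higher in Pcm1-/- than in WT in each region, at 133 ± 3.76 against 87.4 ± 5.19 in frontal cortex, 168 ± 3.1 against 118 ± 16.3 in striatum, and 103 ± 11.4 against 63.5 ± 6.84 in hippocampus (SD, n = 3), and the groups overlapped in no region. These sums and shares are descriptions without a test.

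Genotype was compared within each region to ask whether loss of Pcm1 altered receptor transcripts. In frontal cortex 4 of the 5 genes, Chrm1, Chrm2, Chrm3 and Chrm4, rose in Pcm1-/- mice by 1.46 to 1.78-fold (edgeR's quasi-likelihood test, adjusted p under 0.05 over 17545 genes), whereas 1.41% of all genes were called higher. In striatum and hippocampus 0 of the 5 genes passed, where 0.0228% and 0.0114% of all genes were called higher. Without adjustment 4 of 5 genes had p under 0.05 in striatum (Chrm1, Chrm3, Chrm4 and Chrm5, all higher). In hippocampus 4 of 5 did (Chrm1, Chrm3 and Chrm4 higher, Chrm2 lower). The shares of all genes, in either direction, were 13.5% and 9.89%. DESeq2 called 2 genes higher in striatum (Chrm1, Chrm4) and 3 in hippocampus (Chrm1, Chrm3, Chrm4), where it called 1.54% and 0.61% of all genes higher. Each Pcm1-/- library exceeded each WT library for Chrm1, Chrm3 and Chrm4 in all 3 regions and for Chrm2 in frontal cortex only. Such separation was seen for 12% of all genes in frontal cortex, 9.6% in striatum and 10.6% in hippocampus. The median log2 fold change over all genes was -0.01 in frontal cortex, and the 4 called receptor genes lay between 0.54 and 0.83.

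**Figure D2:**
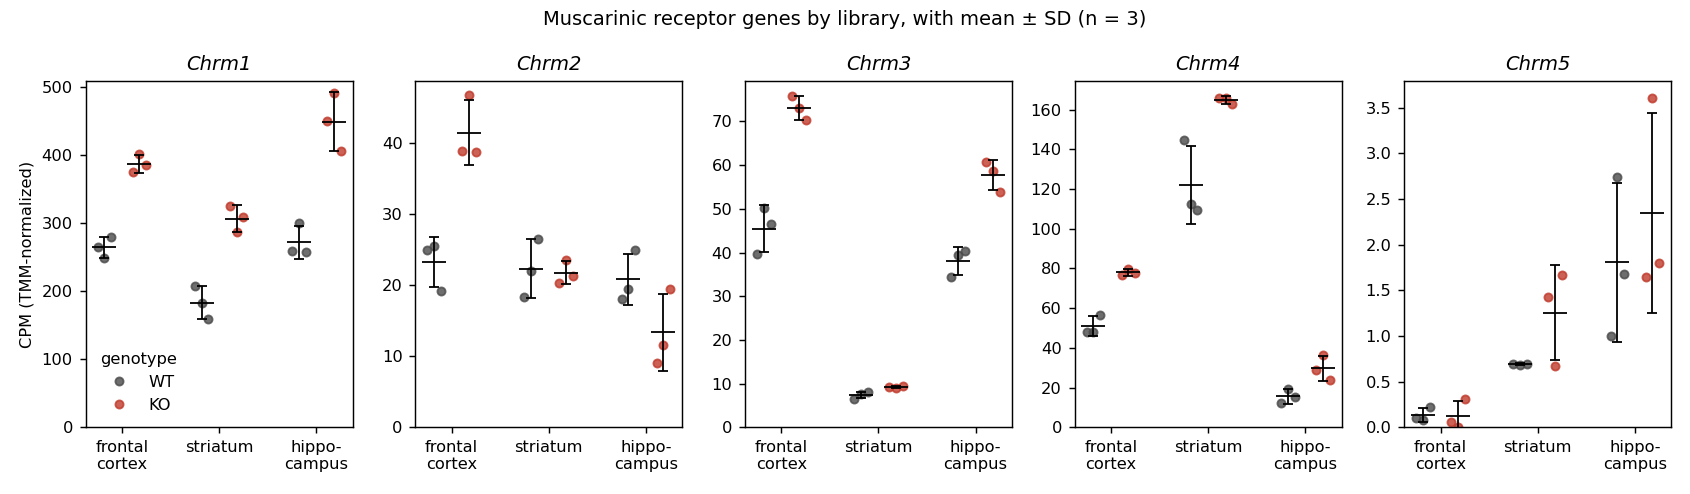
CPM (y axis, linear from 0, a scale for each gene) of the 5 receptor genes in each of the 18 libraries by region and genotype; points are libraries, and the black bars are the mean ± SD (n = 3). Chrm1, Chrm3 and Chrm4 are higher in each Pcm1-/- library than in each WT library of the same region, while Chrm2 is higher in frontal cortex and overlaps elsewhere.

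The calls in frontal cortex depended on single Pcm1-/- libraries. Without Pcm1-/- frontal cortex replicate 1, 0 of 5 genes passed, with adjusted p from 0.0522 (Chrm1) to 0.0853 (Chrm2 and Chrm3), and without replicate 2, 0 of 5 passed, with adjusted p from 0.0507 (Chrm1) to 0.0766 (Chrm2), while the fold changes stayed between 0.52 and 0.88 on the log2 scale. Calls over all genes went from 306 to 11 and 27 in these fits. Chrm2 also missed the threshold without replicate 3 (adjusted p = 0.0595). With sequencing lane as a covariate Chrm1 (adjusted p = 0.0399), Chrm3 (0.0282) and Chrm4 (0.0433) passed and Chrm2 (0.0751) did not, and 0.125% of all genes were called higher. When all 18 libraries shared 1 estimate of the spread, 2 genes (Chrm1, Chrm3) passed in frontal cortex, 1 (Chrm1, adjusted p = 0.00198) in striatum and 3 (Chrm1, Chrm3, Chrm4) in hippocampus, where 0.883%, 0.228% and 0.667% of all genes were called higher. With lane added to that fit the striatal value of Chrm1 was 0.72 and was not called (adjusted p = 0.0631). Averaged over regions with the animal as a block (limma voom), Chrm1, Chrm3 and Chrm4 were called higher, against 4.47% of all genes called in either direction.

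**Figure D3:**
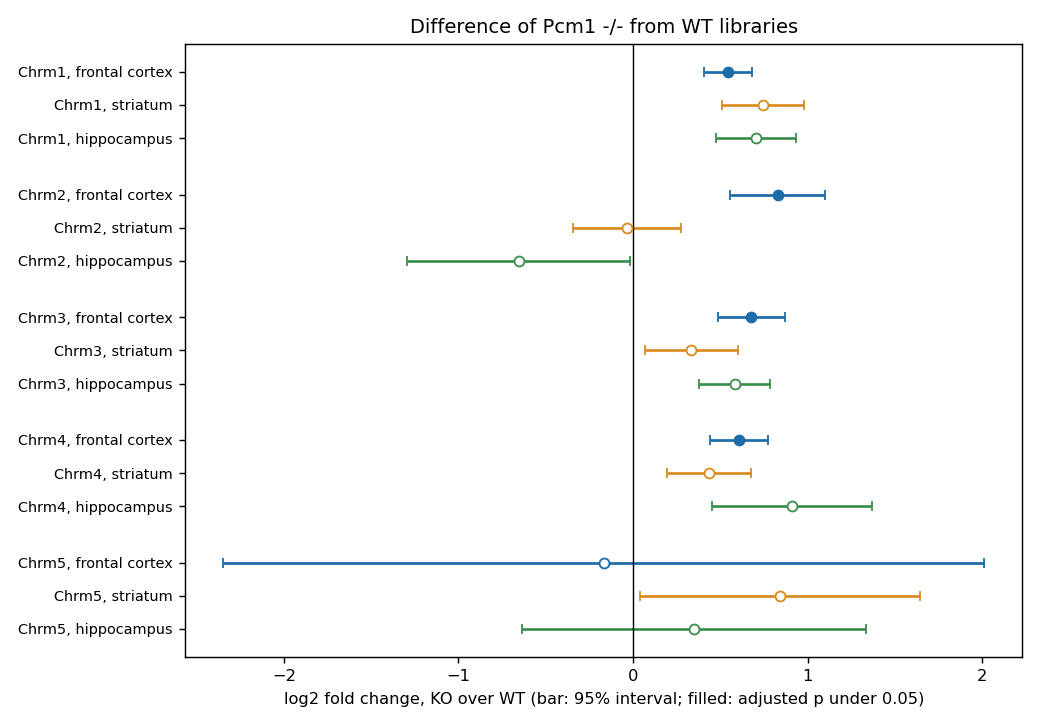
Log2 fold change of Pcm1-/- over WT (x axis) for each receptor gene and region (y axis), with 95% confidence intervals; filled points passed adjusted p under 0.05. The intervals of Chrm1, Chrm3 and Chrm4 lie above 0 in the 3 regions, and that of Chrm2 runs from 0.56 to 1.1 in frontal cortex and from -1.29 to -0.01 in hippocampus.

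Region was compared within each genotype, from 9 libraries in each. Chrm5 was near 0 in frontal cortex and passed the filter only through the other regions, so it is left out of the counts against frontal cortex. In WT mice 3 of 4 receptor genes differed between striatum and frontal cortex and 1 of 4 between hippocampus and frontal cortex, and 4 of 5 between striatum and hippocampus, against 41.5%, 29.8% and 29.2% of all genes called in either direction. In Pcm1-/- mice the counts were 4 of 4, 3 of 4 and 4 of 5, against 54.3%, 41.5% and 45% of all genes.

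**Figure D4:**
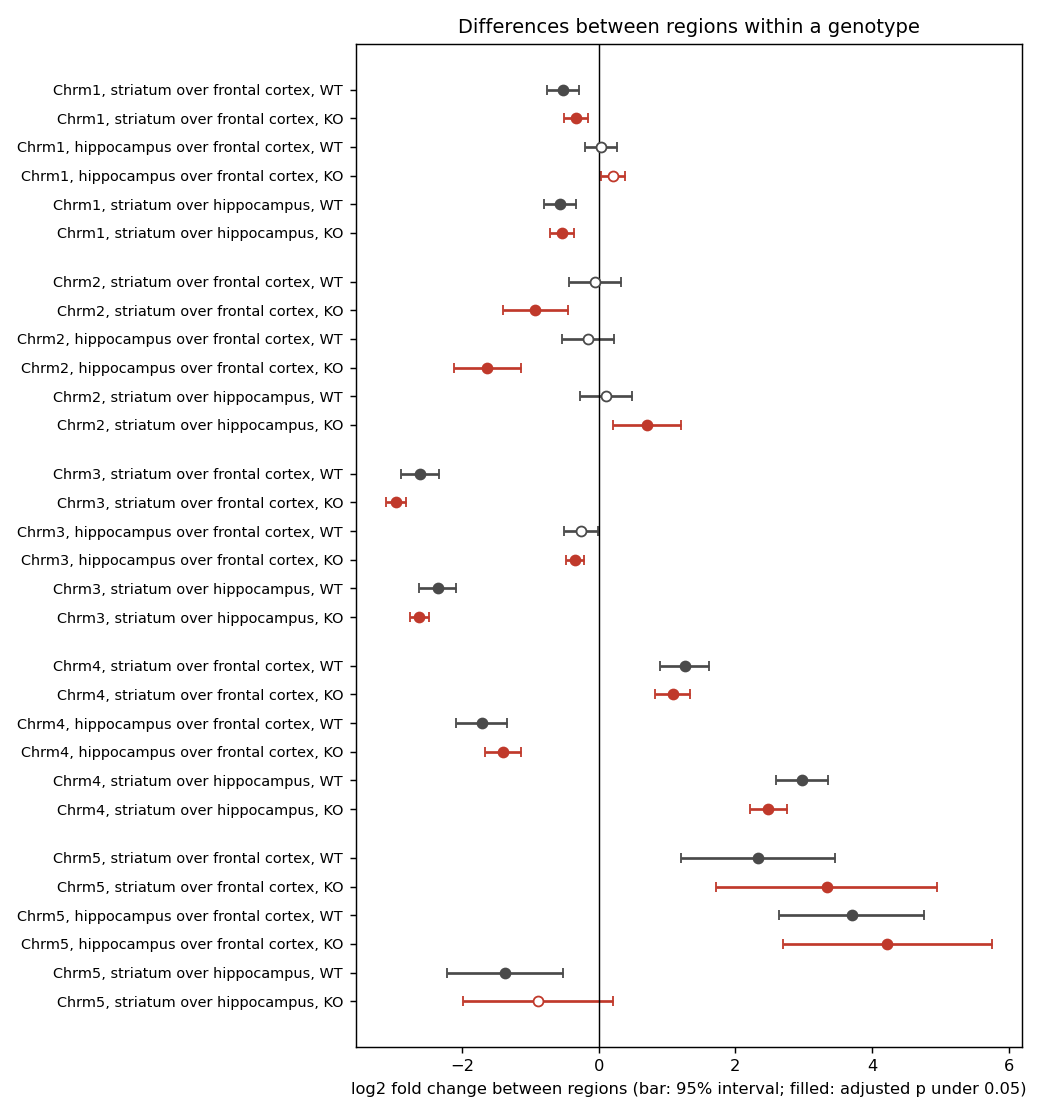
Log2 fold change between regions (x axis) for each receptor gene, region pair and genotype (y axis), with 95% confidence intervals; grey is WT, red is Pcm1-/-, and filled points passed adjusted p under 0.05. Chrm3 is lowest and Chrm4 highest in striatum in both genotypes, and the Chrm2 intervals include 0 in WT but not in Pcm1-/-.

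Chrm1, the M1 receptor gene, was higher in each Pcm1-/- library in every region, and the difference was called in frontal cortex. Frontal cortex held 265, 249 and 281 CPM in WT replicates 1 to 3 and 375, 402 and 387 CPM in Pcm1-/- replicates. Striatum held 208, 182 and 160 CPM in WT and 325, 287 and 309 CPM in Pcm1-/-. Hippocampus held 259, 300 and 258 CPM in WT and 450, 492 and 406 CPM in Pcm1-/-. The lowest Pcm1-/- library thus stood above the highest WT library throughout. The log2 fold change was 0.54 (SE 0.0604, adjusted p = 0.00808) in frontal cortex, 0.74 (SE 0.101, adjusted p = 0.0921) in striatum and 0.70 (SE 0.0985, adjusted p = 0.278) in hippocampus. By unadjusted p it ranked 18, 12 and 6 among 17545 genes. Over the 3 regions together the log2 fold change was 0.67 (SE 0.0667, adjusted p = 3.7e-05). Its regional pattern was shallow, with striatum below frontal cortex by a log2 difference of -0.53 in WT (SE 0.107, adjusted p = 0.00271) and -0.33 in Pcm1-/- (SE 0.0806, adjusted p = 0.00514), and below hippocampus by -0.56 and -0.54 (adjusted p = 0.00238 and 2.76e-04). Hippocampus and frontal cortex were not told apart in WT (log2 difference 0.04, 95% interval -0.2 to 0.27), and in Pcm1-/- the difference was 0.21 (adjusted p = 0.0619). That value was called by DESeq2 (adjusted p = 0.0297) and without Pcm1-/- hippocampus replicate 3 (0.28, adjusted p = 0.0179), and was 0.0907 (adjusted p = 0.474) with lane as a covariate.

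Chrm3, the M3 receptor gene, was scarce in striatum compared with both other regions. WT replicates held 39.6, 50.2 and 46.5 CPM in frontal cortex, 34.4, 39.4 and 40.4 CPM in hippocampus, and 6.58, 7.57 and 8.03 CPM in striatum. Pcm1-/- replicates held 75.8, 73.1 and 70.3 CPM in frontal cortex, 60.6, 58.7 and 53.9 CPM in hippocampus, and 9.36, 9.07 and 9.48 CPM in striatum. Striatum was the low region in both genotypes, and in each region the genotypes did not overlap. Striatum lay below frontal cortex by a log2 difference of -2.62 in WT (SE 0.123, adjusted p = 1.5e-07) and -2.97 in Pcm1-/- (SE 0.0644, adjusted p = 2.37e-10). The log2 fold change of Pcm1-/- over WT was 0.68 (SE 0.0838, adjusted p = 0.0107) in frontal cortex, 0.58 (SE 0.0885, adjusted p = 0.287) in hippocampus and 0.33 (SE 0.115, adjusted p = 0.276) in striatum. Over the 3 regions together it was 0.54 (SE 0.0669, adjusted p = 2.66e-04). Hippocampus was below frontal cortex in Pcm1-/- mice (log2 difference -0.35, adjusted p = 6.72e-04), and the WT difference of -0.26 did not pass (adjusted p = 0.112). The WT difference passed with 1 fit of all libraries (0.0317) or lane as a covariate (0.0486) but not with the animal as a block (0.0546).

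Chrm5, the M5 receptor gene, was near the limit of detection in frontal cortex. WT frontal cortex libraries held 3, 2 and 6 counts, and Pcm1-/- libraries 2, 0 and 9 counts, so no difference was detectable at this depth (log2 fold change -0.17, 95% interval -2.35 to 2.01). The count of 0 allows up to 3 counts at 95% confidence, which covers counting error only. Striatum held 19, 19 and 20 counts in WT and 40, 21 and 46 counts in Pcm1-/-, and hippocampus 26, 73 and 50 counts in WT and 50, 86 and 60 counts in Pcm1-/-. Frontal cortex was therefore the low region in both genotypes, and the genotypes overlapped in frontal cortex and hippocampus. In striatum each WT library held 20 counts or fewer and 1 Pcm1-/- library held 21 counts, which was 0.668 CPM against 0.684 to 0.698 CPM in WT, so the genotypes overlapped in CPM. The log2 fold change of Pcm1-/- over WT was 0.84 in striatum (SE 0.348, adjusted p = 0.35) and 0.35 in hippocampus (95% interval -0.64 to 1.33). Chrm5 passed the filter of 10 counts only through the regions where it was higher, so its calls against frontal cortex are given as a description. The log2 difference of hippocampus over frontal cortex was 3.70 in WT (SE 0.477, adjusted p = 2.86e-04) and 4.22 in Pcm1-/- (SE 0.692, adjusted p = 6.68e-04). Striatum exceeded frontal cortex by 2.33 on the log2 scale in WT (adjusted p = 0.00407) and 3.34 in Pcm1-/- (adjusted p = 0.00279). In Pcm1-/- mice striatum and hippocampus overlapped (-0.89, adjusted p = 0.175). The WT difference between them (-1.37, adjusted p = 0.0211) missed the threshold without WT striatum replicate 1 (-1.38, adjusted p = 0.0591), WT striatum replicate 2 (-1.36, adjusted p = 0.064) or WT hippocampus replicate 2 (-0.95, adjusted p = 0.0874).

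Chrm4, the M4 receptor gene, was highest in striatum, the region where the projection neuron markers were highest. Frontal cortex held 48, 48.2 and 56.8 CPM in WT and 76.7, 80 and 77.6 CPM in Pcm1-/- libraries. Striatum held 145, 113 and 109 CPM in WT and 166, 166 and 163 CPM in Pcm1-/-. Hippocampus held 12.3, 19.4 and 15.1 CPM in WT and 28.7, 36.6 and 24 CPM in Pcm1-/-. The Pcm1-/- libraries were higher in each region, and they lay closer together than the WT libraries in striatum (SD 1.83 against 19.5 CPM). Striatum exceeded frontal cortex by a log2 difference of 1.26 in WT (SE 0.161, adjusted p = 1.32e-04) and exceeded hippocampus by 2.97 (SE 0.173, adjusted p = 6.03e-07), and hippocampus was below frontal cortex (-1.71, SE 0.168, adjusted p = 5.27e-05). The corresponding differences in Pcm1-/- were 1.08 (adjusted p = 1.66e-05), 2.48 (adjusted p = 4.42e-08) and -1.40 (adjusted p = 6.77e-06). The genotype log2 fold change was 0.61 (SE 0.0725, adjusted p = 0.00927) in frontal cortex, 0.43 (SE 0.104, adjusted p = 0.18) in striatum and 0.91 (SE 0.197, adjusted p = 0.391) in hippocampus. Over the 3 regions together it was 0.66 (SE 0.0977, adjusted p = 0.00107).

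Markers of other cell types differed in part between the genotypes. Over the 3 regions together, the comparison in which Chrm1, Chrm3 and Chrm4 were called, 5 of 5 blood, 2 of 4 endothelial and 1 of 5 microglial markers were called lower and 2 of 9 striatal projection neuron markers higher, against 4.47% of all genes called. Counts by sign in the following sentences carry no test. The 9 striatal projection neuron markers summed to 266 to 297 CPM in WT and 325 to 349 CPM in Pcm1-/- frontal cortex, with 7 of 9 higher by sign and 2 called higher (Drd1, the D1 dopamine receptor, log2 fold change 0.68, and Penk, proenkephalin, 0.95), where 1.41% of all genes were called higher. The 7 excitatory markers summed to 2565 to 2666 CPM in WT and 2942 to 3096 CPM in Pcm1-/- frontal cortex, with 4 of 7 higher by sign and 1 called higher in the same comparison (Slc17a7, the vesicular glutamate transporter, 0.26). The 6 oligodendrocyte markers were at 1851 to 2445 CPM in WT and 1673 to 1760 CPM in Pcm1-/- frontal cortex, with 6 of 6 lower by sign. At an unadjusted p under 0.05, reached by 15.3% of all genes there, 4 of 6 oligodendrocyte, 4 of 5 microglial and 2 of 4 endothelial markers were lower, and 0 were called. In striatum the projection neuron markers were at 9354 to 10290 CPM in WT and 10800 to 10990 CPM in Pcm1-/-, with 8 of 9 higher by sign, 6 of 9 at an unadjusted p under 0.05 (13.5% of all genes), 0 called and a median log2 fold change of 0.29. Oligodendrocyte markers summed to 9325 to 9502 CPM in WT and 5480 to 9482 CPM in Pcm1-/- striatum, where Pcm1-/- replicate 2 lay within the WT range. They were lower by sign for 6 of 6 genes, with 4 at an unadjusted p under 0.05 and a median of -0.38. Microglial markers were lower by sign for 5 of 5, with 4 at an unadjusted p under 0.05 and a median of -0.37. The thalamic and choroid plexus values in striatum depended on WT striatum replicate 3, which was left out in a fit chosen after seeing the data. With it 8 of 8 thalamic and 7 of 7 choroid plexus markers were lower by sign, 4 in each list at an unadjusted p under 0.05, with medians of -0.74 and -3.44. Without it 8 of 8 thalamic markers were lower by sign, 2 at an unadjusted p under 0.05, with a median of -0.17, and 6 of 7 choroid plexus markers were higher, 2 at an unadjusted p under 0.05, with a median of 0.30. The projection neuron list kept 8 of 9 higher and 6 of 9 at an unadjusted p under 0.05 without that library, against 13.6% of all genes, and Chrm1, Chrm3 and Chrm4 had positive log2 fold changes that were not called, as with it. In the same fit 2 of 6 oligodendrocyte and 5 of 5 microglial markers were lower at an unadjusted p under 0.05. In hippocampus the excitatory markers were at 1803 to 2267 CPM in WT and 2305 to 2680 CPM in Pcm1-/-, with 5 of 7 higher by sign. At an unadjusted p under 0.05 (9.89% of all genes) 1 of the 7 was higher and 2 were lower, and 0 were called. In striatum 7 of 7 were lower by sign, at 57.8 to 123 CPM in WT and 57.6 to 66.2 CPM in Pcm1-/-, with 2 at an unadjusted p under 0.05 (13.5% of all genes). The hippocampal oligodendrocyte markers were at 4931 to 9695 CPM in WT and 3505 to 6187 CPM in Pcm1-/-, with 6 of 6 lower. Microglial (5 of 5) and endothelial (4 of 4) markers were lower by sign in each region. The part of tissue composition in the receptor differences was not tested, and in bulk tissue fewer cells of a type and less RNA per cell cannot be told apart. In striatum every WT library came from lane 5 and no Pcm1-/- library did (lanes 3 and 4), and an effect of lane cannot be told apart from one of genotype there.

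Chrm2, the M2 receptor gene, was called higher in Pcm1-/- mice in frontal cortex, while its fitted value in hippocampus was negative. In frontal cortex it held 25, 25.5 and 19.2 CPM in WT and 38.9, 46.8 and 38.7 CPM in Pcm1-/- libraries. In striatum it held 18.3, 22.1 and 26.5 CPM in WT and 20.4, 23.6 and 21.3 CPM in Pcm1-/-. In hippocampus it held 18.1, 19.5 and 24.9 CPM in WT and 9.04, 11.6 and 19.5 CPM in Pcm1-/-. Every Pcm1-/- library was higher in frontal cortex, the genotypes overlapped in striatum, and in hippocampus the highest Pcm1-/- library (replicate 3) lay level with the middle WT library. The log2 fold change was 0.83 (SE 0.12, adjusted p = 0.0177) in frontal cortex, -0.03 (95% interval -0.34 to 0.28) in striatum and -0.65 (SE 0.276, adjusted p = 0.499) in hippocampus. Leaving out a library moved the hippocampal value between -1.05 (without Pcm1-/- replicate 3) and -0.45 (without Pcm1-/- replicate 1). Averaged over regions it was 0.05 (95% interval -0.25 to 0.34).

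The genotype effect on Chrm2 was compared between regions directly. The log2 fold change in hippocampus less that in frontal cortex was -1.47 (SE 0.305, unadjusted p = 1.77e-04, adjusted p = 0.322), which ranked 8 by p among 17545 genes. It did not pass after adjustment, and 0 of the 5 receptor genes passed in any of the 3 interaction contrasts by edgeR's quasi-likelihood test, where 0.0057% (striatum against frontal cortex), 0.0057% (hippocampus against frontal cortex) and 0% (striatum against hippocampus) of all genes were called. At an unadjusted p under 0.05 the contrasts held 2 (Chrm2, Chrm3), 1 (Chrm2) and 1 (Chrm4) receptor genes, against 5.29%, 5.5% and 4.46% of all genes. DESeq2 called Chrm2 in the hippocampus against frontal cortex contrast (-1.48, adjusted p = 0.00222) and no other receptor gene in any contrast, and it called 0.239% of all genes in this one. Without Pcm1-/- hippocampus replicate 3 the edgeR value was -1.86 with adjusted p = 0.00957, and 0.16% of all genes were called. Over the alternatives tried the adjusted p for this contrast ran from 0.00222 to 0.803.

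Within genotypes, Chrm2 showed no called difference between regions in WT, with log2 differences of -0.06 (striatum over frontal cortex, 95% interval -0.44 to 0.32), -0.16 (hippocampus over frontal cortex, -0.54 to 0.22) and 0.10 (striatum over hippocampus, -0.28 to 0.48). In Pcm1-/- mice all 3 differences were called, at -0.93 (SE 0.215, adjusted p = 0.00393), -1.63 (SE 0.221, adjusted p = 1.85e-04) and 0.70 (SE 0.222, adjusted p = 0.0246). The last was lost without Pcm1-/- striatum replicate 2 (0.64, adjusted p = 0.072) or 3 (0.71, adjusted p = 0.0609) and without Pcm1-/- hippocampus replicate 1 (0.48, adjusted p = 0.0673) or 2 (0.62, adjusted p = 0.0628). With lane as a covariate the 3 differences were -0.58 (adjusted p = 0.0195), -1.35 and 0.77 in the same order, and each was called.

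Markers of neighbouring tissue also differed between the hippocampal libraries. The 8 thalamic markers summed to 744, 355 and 834 CPM in WT hippocampus replicates 1 to 3 and to 183, 157 and 416 CPM in Pcm1-/- replicates, with 8 of 8 lower in Pcm1-/- by sign, 7 of them at an unadjusted p under 0.05 (9.89% of all genes) and 0 called. In both genotypes replicate 3 held the most Chrm2 and the most thalamic markers, but the order of the other replicates was not the same: WT replicate 1 held less Chrm2 than replicate 2 and more thalamic markers, and so did Pcm1-/- replicate 1. None of the 8 was at 0 in any hippocampal library, and Gbx2, the lowest, was at 0.12 to 1.85 CPM in Pcm1-/- and 1.64 to 5.36 CPM in WT. Cholinergic neuron markers (6 genes measured, Gbx2 among them) summed to 2.7 to 27.1 CPM in WT and 0.962 to 2.62 CPM in Pcm1-/- hippocampus, and Chat, choline acetyltransferase, was at 0 in at least 1 Pcm1-/- library. Choroid plexus markers summed to 2338 to 6375 CPM in WT and 213 to 4310 CPM in Pcm1-/- hippocampus. The part of these tissues in the Chrm2 values was not tested.

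**Figure D5:**
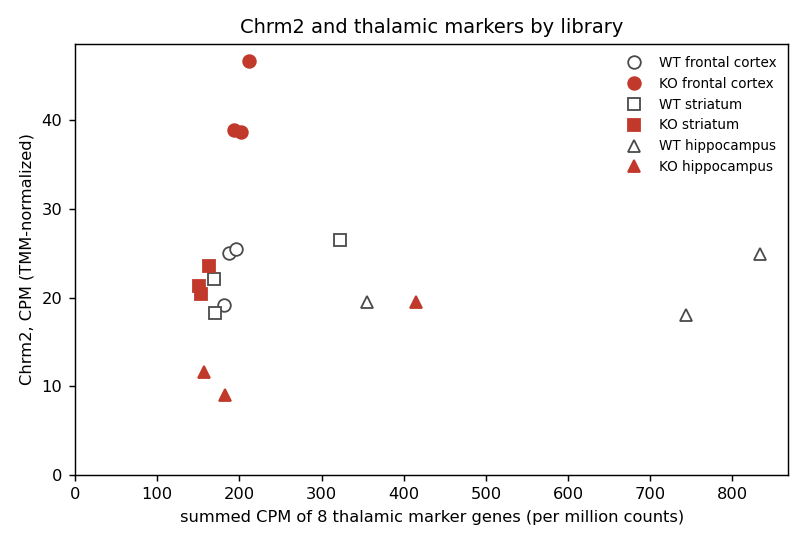
Chrm2 CPM (y axis) against the summed CPM of 8 thalamic marker genes (x axis) in the 18 libraries; symbols mark region and fill marks genotype. Frontal cortex libraries hold 181 to 212 CPM of these markers, and their Chrm2 levels separate by genotype. The hippocampal libraries spread along both axes. The part of thalamic tissue in the Chrm2 values was not tested.

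In frontal cortex, where Chrm2 rose, the thalamic markers were at 181 to 196 CPM in WT and 193 to 212 CPM in Pcm1-/-, with 3 of 8 higher by sign, 2 higher and 2 lower at an unadjusted p under 0.05 (15.3% of all genes), a median log2 fold change of -0.24, 0 called, and Gbx2 at or below 0.101 CPM in every library.

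The other genes of muscarinic signaling were followed as fixed lists, of which the acetylcholine list held 7 measured genes of 8. Among genes for acetylcholine synthesis, release and breakdown, 1 of 7 was called in frontal cortex, where 1.41% of all genes were called higher: Ache, acetylcholinesterase, rose by 0.25 on the log2 scale (SE 0.0493, adjusted p = 0.0469). Calls of genes in the pathway and marker lists in frontal cortex were not followed through the alternative fits. Over all genes the calls there went from 306 to 11 and 27 without single Pcm1-/- libraries. In striatum and hippocampus 0 of 7 were called, with 1 of 7 at an unadjusted p under 0.05 in striatum, and in hippocampus 7 of 7 were lower by sign with 3 at an unadjusted p under 0.05 (Chat, Slc5a7 and Colq). Such p values were found for 13.5% of all genes in striatum and 9.89% in hippocampus. The list median in hippocampus was -0.85 on the log2 scale, against -0.0003 for all genes. This is the region in which the cholinergic markers named above, which share Chat and Slc5a7 with the list, differed between the libraries.

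Of 16 genes in the Gi and Go arm, 1 was called in frontal cortex, against 1.41% of all genes called higher: Kcnj3, a subunit of the inwardly rectifying channels opened by M2 and M4, rose by 0.38 on the log2 scale (SE 0.0613, adjusted p = 0.024), and it was at 0.34 in hippocampus (adjusted p = 0.405). Averaged over regions, where 4.47% of all genes were called, 2 of the 16 were called higher, the adenylyl cyclases Adcy3 (log2 fold change 0.28, adjusted p = 0.0246) and Adcy9 (0.33, adjusted p = 0.0167). Of 15 genes in the Gq arm none was called within a region by edgeR, with 1 higher and 2 lower at an unadjusted p under 0.05 in frontal cortex, 2 and 1 in striatum, and 2 and 2 in hippocampus, and 1 of the 15, Trpc6, a channel opened by diacylglycerol, was called over the regions together (0.41, adjusted p = 0.0152). The 4 M current channel genes, with a median of 0.13 in frontal cortex and 0.18 over the regions, and the 13 genes for receptor desensitisation and RGS proteins, with medians of -0.06 and 0.03, held 0 called genes in these comparisons by edgeR and limma. At an unadjusted p under 0.05 the M current list held 0, 1 and 2 genes in frontal cortex, striatum and hippocampus, the desensitisation list 2, 2 and 1, and the Gi and Go list 6 higher and 2 lower, 3 and 3, and 5 and 0. Over all genes these shares were 15.3%, 13.5% and 9.89%.

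Some receptor genes varied together across libraries and others in opposite directions. Over the 18 libraries, which share animals, lanes and regional differences, Pearson's r of log2 CPM ran from -0.72 (Chrm2 and Chrm5) and -0.64 (Chrm3 and Chrm4) to 0.68 (Chrm1 and Chrm3). With the 6 group means removed it was 0.82 between Chrm1 and Chrm4 and -0.62 between Chrm1 and Chrm2. These values are descriptions of the libraries.

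Among about 12869 genes with sufficient signal, those most like each receptor gene across the 18 libraries were Cers6 (r = 0.97), Gpr173 (0.93) and Xk (0.93) for Chrm1, and Nrg3 (0.99), Mfsd4a (0.99) and Susd4 (0.99) for Chrm3. For Chrm4 they were Efnb2 (0.98), Kcnj4 (0.98) and Gpr158 (0.98), and for Chrm2 Gpr165 (0.94), Olfm3 (0.89) and Mcf2 (0.84). For Chrm5 they were Nnat (0.96), Nkain3 (0.95) and Myo5b (0.94). With group means removed the closest gene was Sowaha (0.95) for Chrm1, Ebf1 (0.92) for Chrm2, Efcab6 (0.86) for Chrm3, Ywhab (0.94) for Chrm4 and Zdhhc15 (0.86) for Chrm5. Gpr165 was among the 3 closest genes to Chrm2 by both measures.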

How the data were processed

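Per the labels and the study's methods, poly(A) RNA was sequenced with KAPA stranded kits, trimmed with Trim Galore (cutadapt), mapped with STAR to GRCm38 and counted per gene with HTSeq, without stated versions or strand setting. The deposited files hold raw counts per Ensembl gene, 1 library per file. Reads on no gene (8.99% to 11.6% of each file) or ambiguous (1.58% to 1.79%) stayed outside library sizes. The 17545 genes that reached 10 counts in 1 or more of the 18 libraries were tested with edgeR 4.0.16 (TMM factors, quasi-likelihood test, Benjamini-Hochberg adjustment over all genes). The genotype effect over regions used limma 3.58.1 (voom, animal as a block, correlation 0.172). DESeq2 1.42.0 was an alternative. Levels are CPM with TMM factors over all libraries and RPKM by GENCODE M21 exon length. The study's methods name another release of the genome and transcriptome for mapping. Of the 38561 genes counted, 36639 matched GENCODE M21. The scripts were tested on simulated data.

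Libraries of 1 animal in different regions pair, per the methods and the animal codes of the files (correlations of deviations 0.0801 to 0.386). By these codes WT striatum replicates 1, 2 and 3 are the animals of replicates 3, 1 and 2 in the other regions, and in every other group a replicate number is 1 animal. Animals are numbered as in frontal cortex. The receptor genes and lists were chosen with earlier results of these data known. The named genes were the 5 receptors, Pcm1, called genes of the pathway lists (at most 4 per comparison) and the 3 genes most like each receptor, and others named were chosen after their values were seen. Fold changes, intervals and tests cover the spread between 3 libraries per group.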

Additional observations from a re-analysis of the deposited data

How the results depend on the processing

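Of 1164 values of single genes under alternatives, 1097 kept their direction and side of the threshold, 21 were weaker, 22 stronger and 24 reversed; the cause was not tested. The number of receptor genes called in frontal cortex was 4. It was 2 with 1 fit of all 18 libraries, with or without lane, and 3 with lane as a covariate. In striatum it was 0, but 1 with 1 fit of all libraries, 1 with no filter and 2 with DESeq2. In hippocampus it was 0, but 3 with 1 fit of all libraries (with or without lane) and 3 with DESeq2. Leaving out a library gave 0 to 4 in frontal cortex and 0 to 1 for the contrast of hippocampus against frontal cortex, where DESeq2 gave 1. The main genotype tests within a region used no pairs. WT and Pcm1-/- libraries of the same replicate number had a lowest correlation of 0.0428 in frontal cortex, -0.269 in striatum and 0.0955 in hippocampus. In these regions 6, 1 and 2 of 6 libraries correlated best with their own number. WT replicate numbers in striatum stand for other animals than elsewhere. The striatal values, and the replicate block there, therefore cannot be read for the same pairs of animals. With the replicate block, 4, 0 and 1 receptor genes were called, the last being Chrm1 (adjusted p = 0.0444), and 1 with the added GC correction, chosen after seeing the data; the animal block changed no call between regions. Over all genes, calls in frontal cortex were 306, but 690 with DESeq2, 544 with no filter, 176 in 1 fit of all libraries, 95 with lane in it, 29 with lane as a covariate, 665 with the replicate block, and 11 to 825 without a library. In striatum 5 became 488 with DESeq2, 65 with no filter and 54 in 1 fit of all libraries. In hippocampus 3 became 220 with DESeq2, 205 in 1 fit of all libraries and 9 with the replicate block. Over the regions together 784 became 1697 in edgeR without the animal block and 243 on counts summed per animal, and 104 (without Pcm1-/- animal 1) to 1337 (without WT animal 3) when an animal was left out. Scaled by the longest transcript, Chrm3 was at 10.5 RPKM in WT frontal cortex and 8.78 in WT hippocampus.

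Reversed values were not called in any of the fits concerned. Chrm2 in striatum was 0.21 with lane in the fit of all libraries, and Chrm5 over the regions was -0.0538 with lane. Leaving out a library or animal, Pcm1-/- over WT ran for Chrm5 from -1.97 to 0.43 in frontal cortex, -0.0789 to 0.76 in hippocampus and -0.38 to 0.44 over the regions, and for Chrm2 from -0.16 to 0.11 in striatum and -0.0515 to 0.17 over the regions. WT differences ran for Chrm2 from -0.20 to 0.0641 (striatum over frontal cortex) and -0.0434 to 0.27 (striatum over hippocampus), and for Chrm1 from -0.0378 to 0.0879 (hippocampus over frontal cortex). Interactions ran for hippocampus against frontal cortex from -0.16 to 0.0131 (Chrm3) and -0.0798 to 2.33 (Chrm5), and for striatum against hippocampus from -0.0697 to 0.12 (Chrm1).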
